A study of Mus musculus with 23 samples.

Results

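The 8 mice with the highest and the 8 mice with the lowest expression of MHC class II genes in the small intestine were compared with each other, out of 23 mice in all. The mice were chosen by an MHC class II score read from each array: the mean log2 ratio of mouse to reference signal over the 5 spots for H2-Aa, H2-Ab1 (2 spots), H2-Eb1 and Cd74, after the array's median ratio was subtracted. The ends were therefore set by measured values and not by a treatment, and the genes of the score are described below without a test. Every other gene was tested across the ends with diet in the fit. Those genes were read from the same arrays as the score, so a fault of an array would enter both.

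All mice were adult male C57BL/6J animals adapted to normal-fat food over 3 weeks. High-fat feeding followed over 12 weeks, either plain (HF, 12 mice) or with 0.33% (w/w) quercetin, a plant flavonoid, added (HF-Q, 11 mice), and food was withheld over the last 2 to 4 h. Total RNA of intestinal scrapings was hybridised to 2-colour Agilent arrays, 1 array per mouse, with the mouse in Cy5 and a pool of all mice in Cy3 and no dye swap. The labels' extraction text names liver tissue although the samples are labelled as small intestine. The epithelial genes Epcam and Vil1, which encode an adhesion molecule and a brush border protein, were well above background on all 23 arrays.

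MHC class II molecules are paired alpha and beta chains that show peptides from the lysosomal pathway to helper T cells. In the gut they are carried by dendritic cells, macrophages and B cells, and also by epithelial cells of the small intestine, where interferon gamma is a known inducer. Interferon gamma raises class II transcription through the transactivator CIITA, and in the same cells it induces immunity-related GTPases, guanylate-binding proteins and the immunoproteasome. In a scraping, more cells that carry a transcript and more transcript per cell cannot be told apart.

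Promoter sequence is shown for a pair of score genes and a pair of the genes that differed most clearly between the ends, because they illustrate the elements through which these sets are known to be regulated. Each line gives the 250 bases before the annotated start from RefSeq on GRCm38.p6, written 5′ to 3′ on the gene's strand. The capitals mark the Y box, CTGATTGG, in the class II genes and the core of the interferon-stimulated response element (GAAA, any 2 bases, GAAA) in the GTPase genes. The windows lie at chr17:34287824-34288073 on the minus strand for H2-Aa, chr17:34305617-34305866 on the plus strand for H2-Eb1, chr11:48871421-48871670 on the minus strand for Irgm1 and chr11:58214727-58214976 on the plus strand for Irgm2.
H2-Aa: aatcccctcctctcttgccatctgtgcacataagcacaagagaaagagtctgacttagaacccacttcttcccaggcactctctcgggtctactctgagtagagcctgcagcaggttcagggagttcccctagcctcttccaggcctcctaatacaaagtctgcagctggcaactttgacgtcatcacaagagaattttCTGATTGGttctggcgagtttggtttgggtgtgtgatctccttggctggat
H2-Eb1: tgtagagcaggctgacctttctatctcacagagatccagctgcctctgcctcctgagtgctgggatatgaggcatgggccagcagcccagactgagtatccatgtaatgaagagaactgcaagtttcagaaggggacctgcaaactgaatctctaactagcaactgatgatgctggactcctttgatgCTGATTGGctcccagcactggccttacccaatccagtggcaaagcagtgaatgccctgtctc
Irgm1: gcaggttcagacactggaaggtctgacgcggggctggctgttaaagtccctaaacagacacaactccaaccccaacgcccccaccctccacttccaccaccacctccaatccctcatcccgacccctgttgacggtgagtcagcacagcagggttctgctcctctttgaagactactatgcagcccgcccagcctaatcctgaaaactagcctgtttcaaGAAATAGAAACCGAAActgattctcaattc
Irgm2: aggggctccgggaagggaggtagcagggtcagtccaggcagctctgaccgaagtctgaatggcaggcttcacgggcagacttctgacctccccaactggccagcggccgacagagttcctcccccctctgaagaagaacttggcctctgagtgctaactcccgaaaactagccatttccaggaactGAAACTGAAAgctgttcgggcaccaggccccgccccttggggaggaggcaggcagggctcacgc

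The motifs were chosen after these sequences had been read, and both strands were searched. The Y box began 51 bases before the start of H2-Aa and 62 bases before that of H2-Eb1. The other score genes, H2-Ab1 and Cd74, had no window and were not searched. The Irgm1 window held 2 overlapping matches of the response element core, 30 and 24 bases before the start, and the Irgm2 window held 1, 64 bases before the start, just after a gamma-activated site core, TTCCAGGAA. Over all 32851 windows of this length, 3.83% held the Y box, 2.98% held the response element core and 7.02% held the gamma-activated site core TTCNNNGAA. Of the 13 named genes called between the ends, 11 had a window, and none of these held the Y box. The response element core was held by 4 (Irgm1, Irgm2, Tgtp2 and Igtp) and TTCNNNGAA by 4 (Irgm2, Psmb8, Tgtp2 and Igtp). Irgm1 and Irgm2 were among the sequences read before the motifs were chosen. A gene counted if any of its windows matched, whereas the shares over all windows count single windows. Outside the calls, the windows of the class II pathway genes H2-DMa and H2-DMb1 did not hold the exact letters CTGATTGG. Those of the class I antigen processing genes Tap1 and Psmb9 held them. Only exact letters were searched, so a Y box with other letters would be missed. A match describes the letters of the window and does not show binding.

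The score ran from 0.21 in HF replicate 9 to 1.80 in HF-Q replicate 5. The 8th mouse scored 1.57 and the 9th 1.502, and the 15th scored 1.08 and the 16th 1.07, so neither limit fell at a gap in the values. The high end held HF-Q replicates 4, 5, 6, 8, 9 and 11 and HF replicates 7 and 8. The low end held HF replicates 1, 2, 3, 4, 9, 11 and 12 and HF-Q replicate 7. Diet and score were thus partly tied. HF-Q mice had a median score of 1.57 (0.82 to 1.80, n = 11) and HF mice one of 1.04 (0.21 to 1.76, n = 12). Ranked after loess normalization, 6 of the 8 highest and 7 of the 8 lowest mice were the same. On loess values the score genes averaged 0.37 and 0.34 in the middle mice HF-Q replicates 1 and 2. The high mice HF-Q replicates 9 and 11 were at 0.32 and 0.24. The middle mouse HF-Q replicate 10 was at -0.31 and the low mouse HF replicate 2 at -0.05. The slides, each also a separate scan, carried 2, 1 and 5 of the high arrays and 3, 3 and 2 of the low arrays, in the order slide 1, 2 and 3. Median Cy5 signal was 104 to 119 in the high arrays and 93.9 to 123 in the low ones, and the share of spots with Cy5 well above background was 49.96% to 55.2% against 50.6% to 57.8%.

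**Figure D1:**
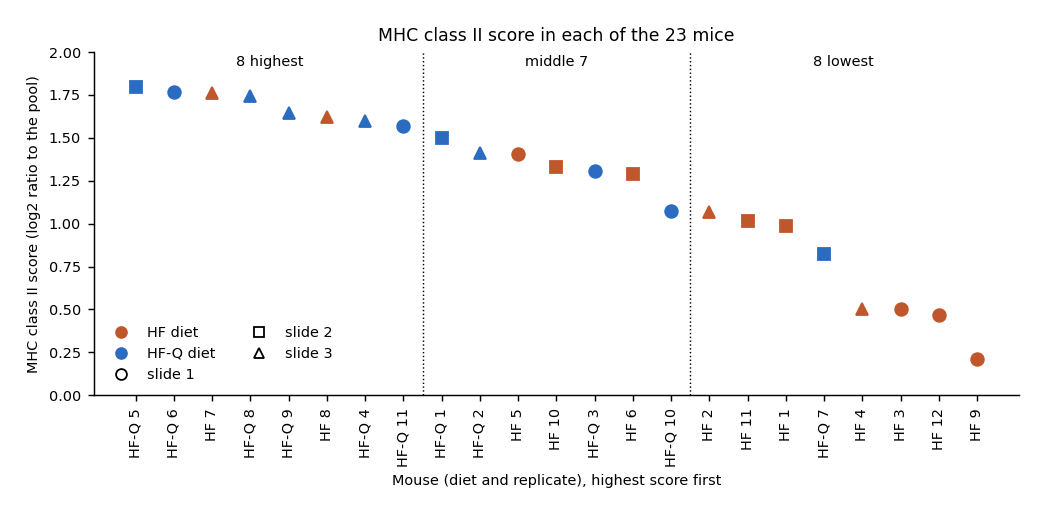
MHC class II score (log2 ratio of mouse to pool, vertical axis) of each of the 23 mice, ordered from highest to lowest; colour gives the diet, shape the slide, and dotted lines separate the 8 highest, the middle 7 and the 8 lowest mice. The score falls from 1.80 to 0.21 with no break at either line. Of the 8 highest mice 6 ate quercetin, and of the 8 lowest 1 did. The score is taken before loess normalization, and its 0 is not the level of the pool.

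The genes of the score are described on the log2 ratio to the pool after loess normalization, on which 0 is the level of the pool. H2-Aa, the class II alpha chain of the A molecule, ranged from 0.12 to 0.64 (median 0.28) at the high end and from -1.34 to -0.26 (median -0.90) at the low end. H2-Ab1, its beta chain, ranged from 0.44 to 1.01 (median 0.76) and from -0.50 to 0.21 (median -0.11). The beta chain of the E molecule, H2-Eb1, ranged from 0.19 to 0.60 (median 0.35) and from -0.61 to 0.02 (median -0.28). Cd74, the invariant chain that guides class II molecules to the lysosome, ranged from 0.13 to 0.58 (median 0.36) and from -0.997 to -0.17 (median -0.66). None of the 4 genes overlapped between the ends, which the ranking itself brings about.

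Outside the score, 21473 genes were tested. With limma and an adjusted p under 0.05, 14 genes were higher at the high end (0.0652% of genes tested) and 2 were lower (0.00931%). At an unadjusted p under 0.05 the counts were 753 higher (3.51%) and 722 lower (3.36%). The adjustment also took in the 4 genes of the score. Of these, 3 passed because the mice were chosen by them, which lowers the adjusted p of genes ranked behind them. Tm4sf4, Ubd, Nlrc5, Ifi47, Igtp, Jdp2 and the probe on chromosome 6 passed close to 0.05, so their calls may rest on this. An adjustment without the score genes was not run. Of the 16 called genes, 12 had no overlap between the ends; over all genes tested, 42 were higher without overlap (0.196%) and 6 lower (0.0279%). Median centring of the arrays in place of loess gave 14 higher and 0 lower. The calls hung on single mice: without HF-Q replicate 7 no gene was called, and without HF replicate 8 only Slc8a1 was. Both mice were scarce in their diet and end. HF replicate 7, the other HF mouse at the high end, was as scarce, and without it 11 genes were still called higher. Leaving out any one of HF replicates 1, 2, 3, 4, 9 and 12 or HF-Q replicates 4, 6, 8 and 11 left 7 to 9 genes called higher, while the fold changes of the 16 called genes kept their sign without any one mouse.

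Immunity-related GTPases, an interferon-induced family that acts on vacuoles holding intracellular pathogens, are the known class of 6 of the 13 called genes that have a symbol; the class was named after the values were seen and no list of it was tested. Other members did not pass: Gm12250, also known as Irgb10, differed by 0.79 ± 0.16 (adjusted p = 0.104) and Iigp1 by 0.18 ± 0.13 (adjusted p = 0.798). The probes of the 6 called genes, all higher, lay in 2 stretches of chromosome 11 (mm9): Irgm1 at chr11:48679069-48679128, Gm5431 at chr11:48701659-48701718, Tgtp2 at chr11:48871837-48871896 and Ifi47 at chr11:48910402-48910461, and further along Igtp at chr11:58020927-58020986 and Irgm2 at chr11:58036093-58036152. Members of this family resemble each other, and hybridisation of one member's RNA to another's probe was not tested.

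Irgm1, a regulatory member of the family, was at -0.07 to 0.40 (median 0.14) in the 8 high mice and at -0.75 to -0.28 (median -0.54) in the 8 low mice. Every high mouse lay above every low mouse, and with diet in the fit the difference was 0.78 ± 0.10 on the log2 scale (SE; 1.71-fold, adjusted p = 0.0168). Irgm2 was at 0.04 to 1.03 (median 0.47) against -0.84 to -0.10 (median -0.40). Its ends did not overlap either, and the difference was 1.06 ± 0.16 (2.09-fold, adjusted p = 0.0168). Igtp, also known as Irgm3, ran from -0.43 to 0.90 (median 0.33) against -1.62 to -0.37 (median -0.84). One high mouse lay within the range of the low mice, and the difference was 1.40 ± 0.26 (2.65-fold, adjusted p = 0.0496).

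Ifi47, which encodes a GTPase of the same family, was at -0.14 to 0.76 (median 0.28) in the high mice and at -0.65 to -0.18 (median -0.35) in the low mice, a difference of 0.79 ± 0.14 (adjusted p = 0.0470). Tgtp2, a T-cell-specific GTPase in the older naming, was at 0.03 to 0.36 (median 0.19) against -0.60 to -0.20 (median -0.32), a difference of 0.55 ± 0.09 (adjusted p = 0.0272). Gm5431, a predicted member of the family, was at 0.14 to 0.53 (median 0.29) against -0.62 to -0.06 (median -0.37), a difference of 0.68 ± 0.11 (adjusted p = 0.0232). The ends of these 3 genes did not overlap.

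The largest fold change among the called genes was that of Ubd, which encodes the ubiquitin-like modifier FAT10. Ubd was at -0.53 to 1.81 (median -0.12) in the high mice and at -2.31 to -1.34 (median -1.65) in the low mice, with no overlap, a difference of 2.16 ± 0.39 (4.46-fold, adjusted p = 0.0470). Its highest value was that of HF replicate 8, and without that mouse the difference was 1.47. The 7 middle mice ran from -1.81 to 0.95, across both ends.

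Genes of class I antigen processing were called as well. Psmb8, the immunoproteasome subunit that replaces a constitutive proteolytic subunit, was at -0.22 to 0.35 (median 0.13) in the high mice and at -0.66 to -0.31 (median -0.53) in the low mice, with no overlap, a difference of 0.67 ± 0.10 (1.59-fold, adjusted p = 0.0169). Its probe lay at chr17:34337771-34337830 (mm9), in the MHC region that also holds the class II chains. Nlrc5, the transactivator of class I genes, was at -0.02 to 0.58 (median 0.28) against -0.53 to -0.10 (median -0.34), a difference of 0.66 ± 0.12 (adjusted p = 0.0470), also with no overlap.

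Wdfy1, which encodes an endosomal protein with WD repeats and a FYVE domain, was at 0.16 to 0.39 (median 0.27) against -0.28 to -0.06 (median -0.16). The difference was 0.48 ± 0.07 (adjusted p = 0.0168), without overlap, but only 2 of its 4 probes had this sign. Jdp2, a repressor of AP-1 transcription, differed by 0.68 ± 0.12 (adjusted p = 0.0497), with 1 high mouse within the range of the low mice; it falls outside the rule for naming genes and is given because it was the only further called gene with a symbol. The remaining 3 calls were probes that the array's design names by an interval on chromosomes 12, 14 and 6, with differences of 0.53 ± 0.08, 0.43 ± 0.07 and 0.73 ± 0.13 (adjusted p = 0.0169, 0.0169 and 0.0496).

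Both genes called lower encode membrane proteins. Tm4sf4, a tetraspanin-like protein, was at -0.90 to -0.24 (median -0.52) in the high mice and at -0.03 to 0.62 (median 0.29) in the low mice, with no overlap, and fell by 0.80 ± 0.14 on the log2 scale (adjusted p = 0.0448). Slc8a1, a sodium-calcium exchanger, was at -0.67 to 0.16 (median 0.07) against 0.14 to 0.57 (median 0.23) and fell by 0.55 ± 0.09 (adjusted p = 0.0353). On 14 of 23 arrays its Cy5 signal stood well above background. HF replicate 7 lay far below the other high mice and HF-Q replicate 7 far above the other low ones.

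**Figure D2:**
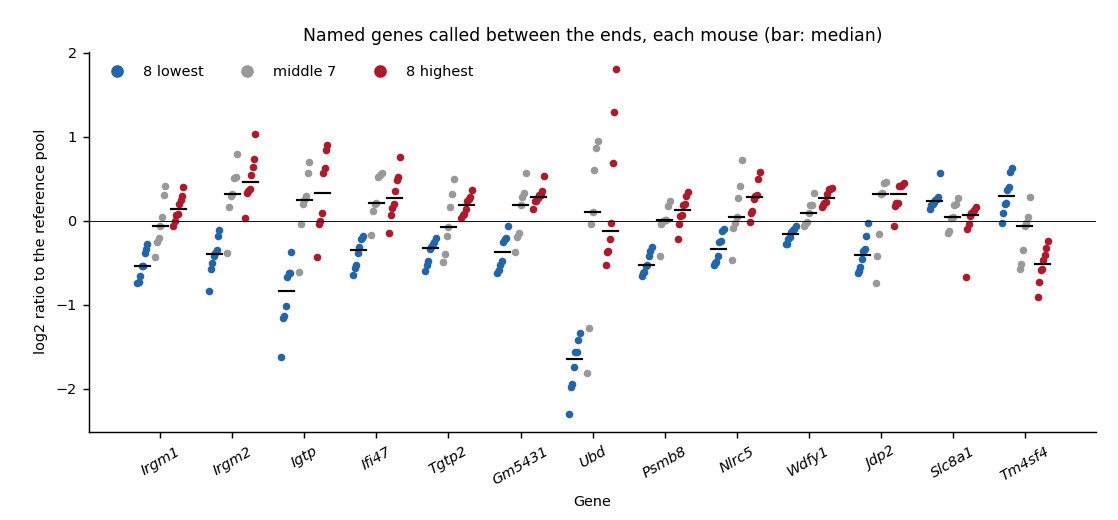
Log2 ratio to the reference pool (vertical axis) of the 13 called genes that have a symbol in each mouse; colour gives the end, with the middle 7 mice in grey, and bars are medians of the 8, 7 or 8 mice. The 8 highest mice lie above the 8 lowest for Irgm1, Irgm2, Ifi47, Tgtp2, Gm5431, Ubd, Psmb8, Nlrc5 and Wdfy1, and below them for Tm4sf4.

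The rest of the class II pathway split sharply. Of 16 genes looked for, 14 were measured and Rfx5 and H2-Ea-ps were not among the genes kept. None of the 14 was called, 10 had a fold change above 0 (49.7% of all genes tested did) and their median was 0.11 on the log2 scale against a median of -0.00 over all genes. The list's median was 0.03 without HF replicate 8 and -0.01 with slide as a block, so its sign was not settled. H2-DMa and H2-DMb1, the chains of the DM molecule that loads peptide onto class II, stood apart from the others. H2-DMa was at 0.16 to 0.52 (median 0.27) in the high mice and at -1.08 to -0.10 (median -0.66) in the low mice, a difference of 0.80 ± 0.15 (adjusted p = 0.0601). H2-DMb1 was at -0.13 to 0.65 (median 0.21) against -1.26 to -0.28 (median -0.60), a difference of 0.82 ± 0.17 (adjusted p = 0.116). Neither gene overlapped between the ends, although neither passed the threshold in this comparison.

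The second DM beta gene, H2-DMb2, differed by 0.01 ± 0.14 (95% interval -0.28 to 0.30). H2-Oa and H2-Ob, the chains of the DO molecule that restrains DM and is known from B cells, differed by 0.13 ± 0.17 and 0.18 ± 0.21 (adjusted p = 0.915 and 0.895). H2-Eb2, a further beta chain gene, differed by 0.32 ± 0.24 (adjusted p = 0.793). The ends overlapped for all 4 genes.

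Ciita, the transactivator on which class II transcription depends, was at -0.61 to 0.36 (median -0.18) in the high mice and at -0.83 to -0.07 (median -0.58) in the low mice. The ends overlapped and the difference was 0.21 ± 0.17 (95% interval -0.16 to 0.57, adjusted p = 0.825). Without HF-Q replicate 7, the highest of the low mice, the difference was 0.34. Rfxap and Rfxank, subunits of the RFX complex that binds class II promoters, differed by 0.10 ± 0.10 and -0.05 ± 0.11 (adjusted p = 0.861 and 0.960). Among lysosomal enzymes that cut the invariant chain or antigens, Ctss differed by 0.15 ± 0.09, Ctsl by -0.25 ± 0.12, Lgmn by -0.15 ± 0.17 and the thiol reductase Ifi30 by -0.03 ± 0.07 (adjusted p = 0.744, 0.706, 0.886 and 0.947). Cd1d1, which presents lipids, differed by 0.01 ± 0.10 (adjusted p = 0.996).

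The cytokine gene Ifng was at -0.17 to 0.33 (median -0.06) in the high mice and at -0.40 to -0.29 (median -0.35) in the low mice. Its ends did not overlap, and the difference was 0.43 ± 0.09 (1.35-fold, adjusted p = 0.116), above the threshold; the Cy5 signal was well above background on 17 of 23 arrays, which limits the size that can be read from it. Irf1, a transcription factor induced by interferon gamma, was at -0.00 to 0.54 (median 0.16) against -0.35 to 0.03 (median -0.18), a difference of 0.36 ± 0.09 (adjusted p = 0.403) with 1 high mouse within the low range. The receptor chains Ifngr1 and Ifngr2 each differed by -0.04 (SE 0.08 and 0.10).

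Over the interferon gamma list, 32 of 33 genes were measured, 26 had a fold change above 0 (49.7% of all genes tested did) and the median was 0.32. Called higher were 4 (Irgm1, Irgm2, Igtp and Ubd) and none lower, against 0.0652% and 0.00931% of all genes tested. Igtp and Ubd passed close to 0.05, so their calls may rest on the score genes in the adjustment. At an unadjusted p under 0.05, 17 were higher (53.1%, against 3.51% of all genes tested) and 1 lower (3.1%, against 3.36%). The mean of the list per mouse was -0.05 to 0.34 in the high mice and -0.34 to -0.19 in the low mice, so the ends did not overlap. Beyond the called genes, the cytosolic nucleic acid sensor Zbp1 differed by 0.95 ± 0.19 (adjusted p = 0.105) and the checkpoint ligand Cd274 by 0.42 ± 0.09 (adjusted p = 0.107), both without overlap; these and the genes in the next sentence are named outside the rule, after their values were seen. The guanylate-binding proteins were mixed, from 0.49 ± 0.15 for Gbp2 to -0.54 ± 0.24 for Gbp5 (adjusted p = 0.589 and 0.705), and the chemokine genes Cxcl9, Cxcl10 and Cxcl11 differed by 0.46 ± 0.14, 0.28 ± 0.16 and -0.38 ± 0.27 (adjusted p = 0.588, 0.744 and 0.787).

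The class I and immunoproteasome list had 25 of 26 genes measured. Of these, 24 had a fold change above 0 (49.7% of all genes tested did). Psmb8 and, close to 0.05, Nlrc5 were called higher (0.0652% of all genes tested were). In that direction 18 had an unadjusted p under 0.05 (72%, against 3.51% of all genes tested). The median was 0.28 (0.19 without HF-Q replicate 7). Tap1, a subunit of the peptide transporter, was at -0.06 to 0.41 (median 0.10) in the high mice and at -0.84 to -0.23 (median -0.41) in the low mice, with no overlap and a difference of 0.60 ± 0.12 (adjusted p = 0.104). The class I heavy chains H2-K1 and H2-D1 and the light chain B2m differed by 0.32 ± 0.13, 0.33 ± 0.09 and 0.42 ± 0.13 (adjusted p = 0.699, 0.579 and 0.593). The single member below 0 was H2-Q4, at -0.66 ± 0.58. Per mouse, the mean of the list ran from -0.14 to 0.22 in the high mice and from -0.33 to -0.05 in the low mice, which overlapped.

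Of 31 genes of the type I interferon list, 30 were measured and 29 had a fold change above 0, with a median of 0.24 and no call. In that direction 11 had an unadjusted p under 0.05 (36.7%, against 3.51% of all genes tested). Trim30a, which encodes a tripartite motif protein, was at 0.23 to 0.54 (median 0.32) against -0.23 to 0.19 (median 0.12), without overlap, a difference of 0.40 ± 0.07 (adjusted p = 0.0566). Ifit2, a further interferon-induced gene, differed by 0.35 ± 0.08 (adjusted p = 0.227), also without overlap, and Ifi44 by 0.61 ± 0.13 (adjusted p = 0.139) with 2 of the 8 high mice within the range of the low mice. Per mouse the list ran from -0.09 to 0.17 at the high end and from -0.44 to 0.20 at the low end; the lowest mouse was HF-Q replicate 7 and without it the median fold change was 0.13.

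**Figure D3:**
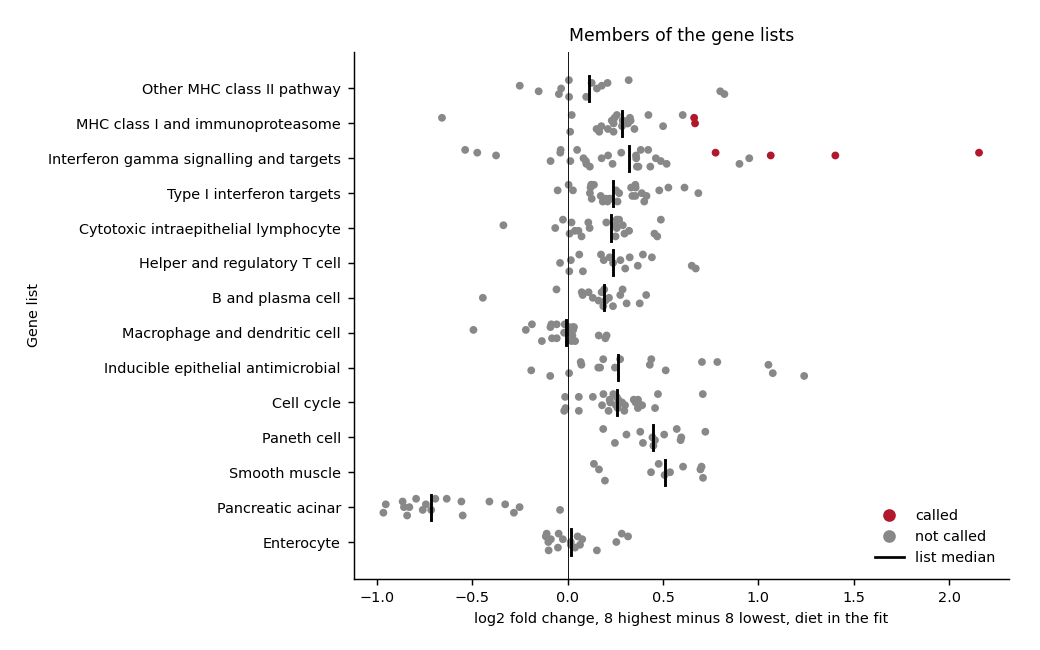
Log2 fold change between the 8 highest and 8 lowest mice with diet in the fit (horizontal axis) for each measured member of 14 gene lists (vertical axis); red points are called, grey ones are not, and black bars are list medians. Medians are 0.28 for class I, 0.32 for interferon gamma, -0.01 for macrophages and dendritic cells and -0.72 for pancreatic acinar genes.

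Markers of the cells that could carry class II were looked at next. The macrophage and dendritic cell list, which includes the defining markers Adgre1 and Itgax, had 23 of 26 genes measured, 11 with a fold change above 0, a median of -0.01 (0.06 with median centring) and no call. Adgre1 was at 0.08 to 0.63 (median 0.14) in the high mice and at -0.14 to 0.47 (median 0.21) in the low mice and differed by -0.02 ± 0.12 (95% interval -0.26 to 0.23, adjusted p = 0.990). Itgax was at -0.18 to 0.14 against -0.26 to 0.21 and differed by -0.02 ± 0.10 (95% interval -0.23 to 0.19, adjusted p = 0.985). The mean of the list per mouse was -0.05 to 0.19 against -0.16 to 0.20, with the ends overlapping through nearly their whole range.

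The B and plasma cell list had 18 of 20 genes measured, 16 above 0, a median of 0.19 and none at an unadjusted p under 0.05 in either direction. The median was 0.35 without HF-Q replicate 7, 0.12 without HF replicate 8 and 0.05 with slide as a block. Per mouse the list ran from -0.09 to 0.29 against -0.61 to 0.38.

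T cell markers lay mostly above 0 without a call. Of the cytotoxic intraepithelial lymphocyte list 22 of 26 were measured, 19 above 0, with a median of 0.23 (0.15 without HF replicate 8). Of the helper and regulatory T cell list 17 of 23 were measured, 16 above 0, with a median of 0.24. At an unadjusted p under 0.05, 11 genes of the cytotoxic list (50%) and 7 of the helper list (41.2%) were higher. Over all genes tested that share was 3.51%. Cd8a, the coreceptor of cytotoxic cells, was at -0.07 to 0.31 (median 0.07) against -0.38 to 0.07 (median -0.30), a difference of 0.27 ± 0.10 (adjusted p = 0.675). Cd3e, a chain of the T cell receptor complex, differed by 0.06 ± 0.10 (adjusted p = 0.934) and Cd4 by -0.04 ± 0.11 (adjusted p = 0.962). Larger differences were those of the granzyme gene Gzmb, 0.47 ± 0.15, the chemokine gene Ccl5, 0.49 ± 0.14, and Cd6, a T cell surface receptor, 0.67 ± 0.16 (adjusted p = 0.626, 0.555 and 0.318). The mean of the cytotoxic list was -0.07 to 0.22 in the high mice and -0.31 to -0.05 in the low mice, and the middle 7 mice, at 0.01 to 0.30, were as high as the high end. The part of these cells in the calls was not tested.

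Epithelial lists gave no call between the ends. The enterocyte list had 18 of 18 genes measured, 10 above 0 and a median of 0.02; Epcam differed by 0.05 ± 0.10 and Vil1 by 0.25 ± 0.16 (adjusted p = 0.942 and 0.754). The inducible antimicrobial list had 18 of 22 measured, 16 above 0 and a median of 0.26 (0.40 without HF-Q replicate 7, 0.12 with distal and proximal means in the fit). For the slope on the score over all 23 mice, 1 gene of this list was called, rising. At an unadjusted p under 0.05, 11 of its genes rose and 1 fell by slope, whereas 6.26% of all genes tested rose and 5.48% fell. In that list Lypd8, a secreted protein that keeps bacteria off the epithelium, differed by 0.44 ± 0.12, the chemokine gene Ccl28 by 0.43 ± 0.19 and Nos2, the inducible nitric oxide synthase, by 0.78 ± 0.41 (adjusted p = 0.526, 0.705 and 0.740). Nos2 varied widely inside each end, from -0.64 to 0.83 and from -2.01 to 0.78. The cell cycle list had 28 of 29 measured, 25 above 0 and a median of 0.26 (0.12 with acinar and smooth muscle means in the fit). At an unadjusted p under 0.05, 6 of its genes were higher (21.4%, against 3.51% of all genes tested). Top2a, a topoisomerase of dividing cells, differed by 0.46 ± 0.14 without overlap (adjusted p = 0.608).

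The Paneth cell, smooth muscle and pancreatic acinar lists each had every measured member on one side of 0 without a call. All 13 measured genes of the Paneth cell list were above 0 with a median of 0.45, all 11 of the smooth muscle list with a median of 0.51, and all 19 of the pancreatic acinar list below 0 with a median of -0.72; none had an unadjusted p under 0.05. Over the 23 mice the list means correlated with the score at 0.18, -0.01 and 0.01 (Pearson, a description). The Paneth median was 0.97 without HF-Q replicate 7, 0.25 without HF replicate 8 and -0.03 with the acinar and smooth muscle means in the fit, and the smooth muscle median was 0.82 without HF-Q replicate 7. The acinar list per mouse ran from -2.94 to -0.26 in the high mice and from -2.92 to 1.63 in the low mice, and HF replicate 8 lay far below the other high mice. Without HF replicate 8 the acinar median was 0.24, without HF-Q replicate 7 it was -2.16, and its slope on the score over all 23 mice had a median of 0.41, so the list had no settled direction. Within the diets the slopes of these lists differed in sign, untested: their medians were 0.65 in HF and -0.29 in HF-Q mice for Paneth genes, 0.32 and -0.38 for smooth muscle and -0.43 and 2.86 for acinar genes. The part of tissue makeup in the calls was not tested beyond the fits that follow. With the acinar and smooth muscle means in the fit, 39 genes were higher and 3 lower, among them 14 of the 16 called above. With the means of distal and proximal intestinal markers in the fit, 12 were higher and 2 lower, 11 of them among the 16.

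**Figure D4:**
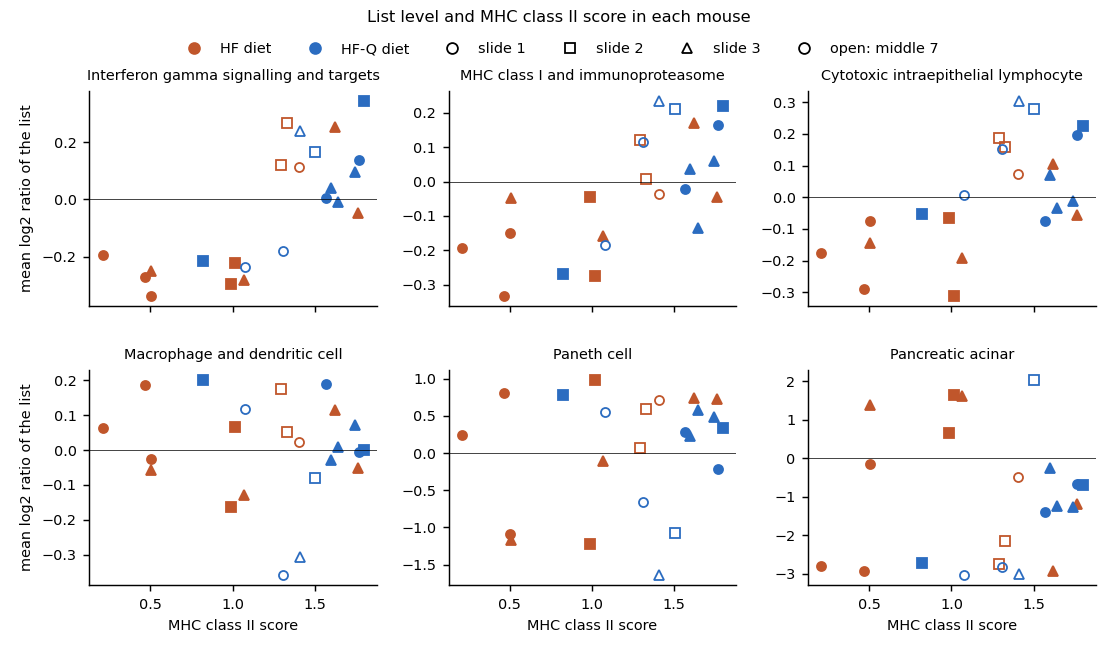
Mean log2 ratio of 6 gene lists (vertical axes, each with its own scale) against the MHC class II score (horizontal axes) in each mouse; colour gives the diet, shape the slide, and open symbols are the middle 7 mice. The interferon gamma list runs from -0.34 to -0.19 in the 8 lowest mice and from -0.05 to 0.34 in the 8 highest, whereas the macrophage and dendritic cell, Paneth cell and acinar lists overlap between the ends.

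The slope on the score over all 23 mice does not depend on where the ends are set. With limma, diet in the fit and an adjusted p under 0.05, 56 genes rose with the score (0.261% of genes tested) and 12 fell (0.0559%). At an unadjusted p under 0.05, 1345 rose (6.26%) and 1176 fell (5.48%). Of the 16 genes called between the ends, 13 were also called by slope, which is 81.3% of the first set and 19.1% of the second; the arrays are the same, so this is no independent repeat. The exceptions were Tgtp2, Slc8a1 and 1 probe named by interval. Leaving out any one of HF replicates 3, 4, 5, 8, 10 and 12 or HF-Q replicates 5 and 10 left 24 to 35 genes rising.

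By slope the DM genes passed the threshold. H2-DMa rose by 0.92 per unit of score (adjusted p = 1.36e-08) and H2-DMb1 by 0.94 (adjusted p = 6.67e-05). The 10 genes whose values were most like the score over the 23 mice, by Pearson correlation, were H2-DMa (0.967), H2-DMb1 (0.897), Wdfy1 (0.872), Gm5431 (0.867), Tap1 (0.863), Iqcc (0.843), Psmb8 (0.830), Ifi47 (0.823), Mtm1 (0.823) and Irgm2 (0.817). These are descriptions over arrays that share their reference pool and, in part, their diet. Tap1 rose by 0.61 per unit of score (adjusted p = 0.00148) and Ubd by 2.20 (adjusted p = 0.00364), whereas Ciita, at 0.37, and Ifng, at 0.41, did not pass (adjusted p = 0.246 and 0.103).

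Further genes of the slope were picked after their values were seen. Gcnt1, a glycosyltransferase that branches mucin-type glycans, rose by 1.01 per unit of score (adjusted p = 0.00772), Il18bp, the soluble inhibitor of interleukin 18, by 0.95 (adjusted p = 0.0221), and Irf8, an interferon regulatory factor of myeloid and B cells, by 0.40 (adjusted p = 0.0465). Psmb9, another immunoproteasome subunit, rose by 0.46 (adjusted p = 0.0465), Erap1, a peptide-trimming aminopeptidase, by 0.23 (adjusted p = 0.0396) and Cd6 by 0.69 (adjusted p = 0.0356). Among those that fell, Pparg, a nuclear receptor of lipid metabolism, had a slope of -0.34 (adjusted p = 0.0437), the glutathione transferase gene Gstm2 one of -0.53 (adjusted p = 0.0221), the carboxylesterase gene Ces2a one of -0.62 (adjusted p = 0.0465) and the export pump gene Abcc5 one of -0.45 (adjusted p = 0.0193).

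Because 6 of the 8 high mice ate quercetin, the same genes were examined within each diet. All 16 called genes had the same sign of slope in HF mice alone and in HF-Q mice alone; 53.2% of all genes tested had the same sign in both diets. The 16 were called on these same arrays with diet in the fit, so this agreement is largely built in. Irgm2 rose by 0.85 ± 0.15 per unit in HF mice and by 1.47 ± 0.23 in HF-Q mice, and Ubd by 2.09 ± 0.42 and 2.54 ± 0.63. Tm4sf4 had slopes of -0.65 ± 0.16 and -1.05 ± 0.26. With limma, the difference of slope between the diets was called for 0 genes in either direction (835 and 650 at an unadjusted p under 0.05), and the smallest adjusted p was 0.152. In HF mice alone 4 genes rose with the score (0.0186%): H2-DMa, H2-DMb1, Ifi47 and the probe on chromosome 12. In HF-Q mice alone 0 did at the adjusted threshold (0%), with 887 rising and 695 falling at an unadjusted p under 0.05.

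In the HF group both high mice lay above all 7 low mice for each of the 14 genes called higher (2.93% of all genes tested did so) and below them for both genes called lower (2.66%). In the HF-Q group all 6 high mice lay above the only low mouse, HF-Q replicate 7, for the same 14 genes (23.5% of all genes) and below it for the same pair (25.1%). Igtp was at -0.01 in HF replicate 7 and 0.62 in HF replicate 8 against -1.15 to -0.37 in the 7 low HF mice, and at -0.43 to 0.90 in the 6 high HF-Q mice against -1.62 in the low one. The only overlap of Igtp was thus between mice of different diets. These counts describe the arrays on which the genes were called.

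**Figure D5:**
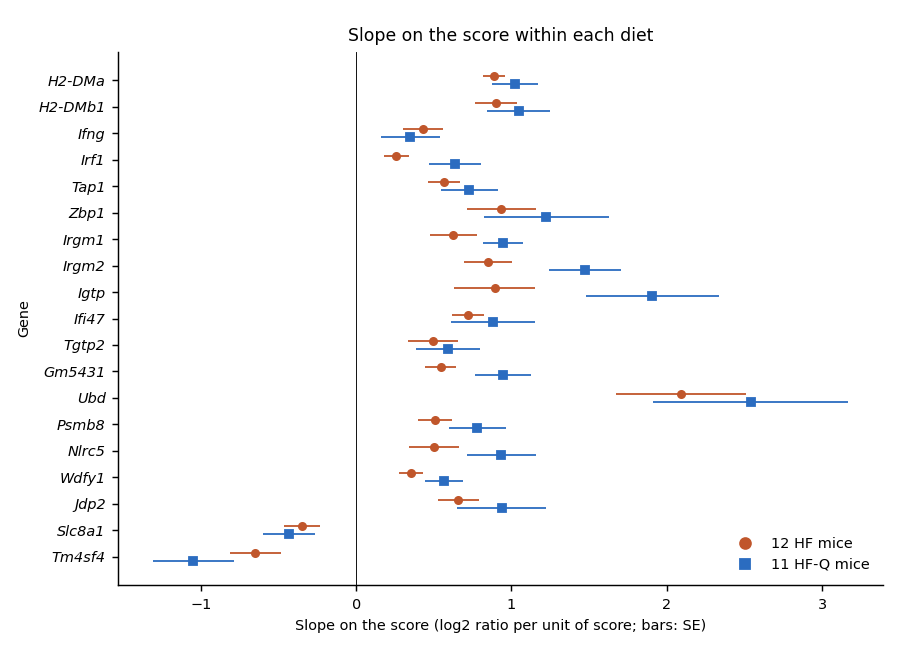
Slope on the MHC class II score (horizontal axis, log2 ratio per unit of score, bars are SE) of 19 genes (vertical axis) in the 12 HF mice and the 11 HF-Q mice. Every gene shown has the same sign in both diets; Ubd has slopes of 2.09 and 2.54 and Tm4sf4 of -0.65 and -1.05.

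Slide was the other known difference among the arrays. With slide as a block beside diet, 7 of the 16 genes were still called, all of them higher, and 19 genes rose and 1 fell by slope. Within slide 1 (2 high and 3 low arrays, where diet could not be separated) Irgm1 differed by 0.76 and Ubd by 2.40, and within slide 3 (5 high and 2 low arrays, with diet in the fit) by 0.74 and 2.22. Tm4sf4 differed by -0.86 and -0.50. No gene was called within either slide, where the smallest adjusted p was 0.171 and 0.0611, with 489 and 1540 genes higher and 527 and 586 lower at an unadjusted p under 0.05; slide 2 held a single high array and gave no fit.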

How the data were processed

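The arrays were scanned and read with Agilent Feature Extraction 10.7.3.1, per the submitters' processing notes. The deposited scanner files hold, per the file headers, red and green intensity, the authors' log10 ratio of red over green and flags. The authors also deposited a table of log2 values with centring unstated; it followed log2 Cy5 intensity with the direction of mouse over pool. The members and gene lists were chosen with earlier results of these data known.

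Mean and median-background intensities were corrected by normexp (offset 50) and normalized by loess in limma 3.58.1 (R 4.3.3), control spots weighted 0. Of 55681 probes, 29249 were kept, those whose Cy5 flag was above background in 50% or more of 1 diet's arrays, and the brightest probe stood for each of 21477 genes; 27235 probes were named through RefSeq accessions, 3581 by symbol, 565 by synonym and 24300 kept the file's name. RefSeq symbols follow GRCm38.p6; probe positions are mm9. The ends were fitted with diet (lmFit, eBayes, Benjamini-Hochberg, adjusted p under 0.05). Slopes on the score were fitted likewise and, in a further fit, their difference between diets. The adjustment ran over all 21477 genes, with the 4 genes of the score fitted but not counted. Tested on simulated data of the 8 against 8 mice and 21477 genes, the fit recovered 66% of changes of 0.5 on the log2 scale. It recovered 95% of changes of 1, with 3 false calls at either size. In the mice, Irgm2 at 1.06 was called, whereas Zbp1 at 0.95 and Il18bp at 0.90 were not (limma, adjusted p = 0.105 and 0.139). The recovery rates thus do not show that an uncalled gene is unchanged.

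Genes named are the 10 called genes with a symbol and the smallest p in each direction, the 3 smallest p of each of 40 gene lists, the class II pathway, 12 fixed markers and signalling genes, and the 10 most like the score. Results for 2 of the fixed genes are not reported here. The labels do not say that same-numbered mice are paired. Over 11 numbers shared by both diets, deviations from the diet means correlated at -0.35 to 0.39, with 5 above 0.1, so replicate numbers were not taken as pairs. Each array is 1 mouse, and the number of arrays limits the precision.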

Additional observations from a re-analysis of the deposited data

Results flagged for a closer look

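Across 394 groups of 8 mice (genes and lists at either end), 23 had 1 mouse apart from the others, the gap to its nearest neighbour exceeding 0.526 of the group's range; chance gives about 1 group in 20. Values are log2 ratios to the pool. At the high end, HF-Q replicate 5 stood apart in H2-Aa (0.645, nearest 0.368) and Irf1 (0.536, nearest 0.192). HF-Q replicate 9 did so in Ifit2 (0.448) and the NRF2 and glutathione list (0.263). HF-Q replicate 6 was low in Mmp7, the Paneth cell matrilysin (-0.307, nearest 0.323), and high in the adipocyte list (0.46) and the carbohydrate digestion list (0.427). HF-Q replicate 4 was low in Acot1, an acyl-CoA thioesterase (-2.16, nearest -0.841), and high in the respiratory chain list (0.14). HF replicate 7 was low in Slc8a1 (-0.671) and high in the distal small intestine list (0.419). HF replicate 8, whose removal ended nearly all calls, stood apart in the acinar list (-2.94, nearest -1.39), the unfolded protein response list (-0.007) and Znrf3 (0.162).

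At the low end, HF-Q replicate 7, the only quercetin mouse there, was high in Slc8a1 (0.567), in Chat, the acetylcholine-synthesizing enzyme (1.24, nearest 0.288), and in Bax, a promoter of cell death (0.4, nearest -0.155). HF replicate 2 was high in Traf1 (0.317), in Dclk1, a tuft cell marker (0.904, nearest 0.335), in the tuft cell list (0.584) and in the cholesterol synthesis list (0.288). HF replicate 3 was high in the NRF2 and glutathione list (0.306) and HF replicate 11 in the unfolded protein response list (0.145).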

How the results depend on the processing

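The calls between the ends were few and moved with the processing, whereas no gene named changed sign past the threshold. The main fit called 14 genes higher and 2 lower. Higher and lower counts were 61 and 11 without diet, 7 and 0 with slide as a block, 0 and 0 within slide 1 and within slide 3, 29 and 3 with ends from loess ratios, 7 and 0 on the authors' log2 table, 9 and 1 without background correction, 1564 and 1054 with array weights, and 39 and 3 with acinar and smooth muscle means. Median centring gave 14 and 0, the authors' log10 ratio 12 and 0, Cy5 alone 12 and 1, probes above background on all 23 arrays 14 and 1, and the mean of a gene's probes 14 and 1. Leaving out 1 mouse gave 0 to 16 higher and 0 to 2 lower. In the fit with array weights, HF replicate 7 carried a weight of 7.23 and the other arrays 0.31 to 1.56. For the slope, 56 rose and 12 fell; the counts were 19 and 1 with slide as a block, 4 and 0 in HF and 0 and 0 in HF-Q mice alone, and 24 to 62 and 1 to 13 without 1 mouse. The replicate block gave 3 and 0 for the slope and, as a random block, 16 and 2 for the ends. The labels do not say that the numbers pair the mice, and 2 HF mice correlated best with their own number. Why the block lowered the slope counts was not tested. Fewer samples or genes enter the fits within slides and diets; otherwise the cause was not tested. Slide 2 alone was not run because it holds 1 high array. Ifng and Slc8a1 lie near background on some arrays, which limits their values.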

Other observations

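Lists of metabolism and secretion gave no call between the ends, and several of their medians lie close enough to 0 to change sign: with median centring the NRF2 and glutathione list moved from -0.02 to 0.05, and without HF replicate 8 the cytochrome P450 list moved from -0.08 to 0.01. In the unfolded protein response list 15 of 20 genes had a fold change above 0, with a median of 0.15. At an unadjusted p under 0.05, 4 were higher (20%, against 3.51% of all genes tested). Of 25 cholesterol synthesis genes 19 were above 0 (median 0.14, or 0.22 without HF replicate 8). Of 28 measured PPARA target and fatty acid oxidation genes 7 were above 0 (median -0.07, or -0.15 without HF-Q replicate 7), and of 17 xenobiotic cytochrome P450 genes 4 were (median -0.08). In the NRF2 and glutathione list 9 of 23 were above 0. At an unadjusted p under 0.05, 4 were lower (17.4%, against 3.36% of all genes tested). Enteroendocrine markers were above 0 in 2 of 15 (median -0.07), tuft cell markers in 2 of 11 (median -0.08, or -0.17 without HF-Q replicate 7) and goblet cell markers in 11 of 13 (median 0.12). By slope over all 23 mice, at an unadjusted p under 0.05, 11 cholesterol synthesis and 9 unfolded protein response genes rose (6.26% of all genes tested did). By the same measure 9 genes of the fatty acid oxidation list fell (5.48% of all genes did). None of these 3 lists held a gene called by slope.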
